A study of Homo sapiens with 4 samples.

Results

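CpG methylation was described at 6 genes of the pluripotency network in the established line H9 of human embryonic stem cells: POU5F1, NANOG, PRDM14, SALL4, LIN28A and LIN28B. Their cytosines were chosen by position alone, as those within the 6 gene spans and 5 kb on either side (hg19, spans in whole kb) covered by 5 reads or more in each of the 4 libraries. This gave 100 cytosines of 907719 in all: 47 at POU5F1, 18 at SALL4, 11 at PRDM14, 10 at LIN28B, 9 at NANOG and 5 at LIN28A. They lay on chromosome 6 between 31127 and 31144 kb for POU5F1, on chromosome 12 between 7936 and 7954 kb for NANOG, and on chromosome 8 between 70958 and 70989 kb for PRDM14. The regions were 50395 to 50425 kb of chromosome 20 for SALL4, 26732 to 26762 kb of chromosome 1 for LIN28A, and 105399 to 105537 kb of chromosome 6 for LIN28B. Positions are placed by distance from the gene span and not by exon or intron, since no annotation of that build was at hand.

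The study held 4 libraries of H9 genomic DNA enriched by a methylation capture kit and treated with bisulfite, 1 library in each group. WT primed was unmodified H9 in basal medium, and KO primed was H9 with the genotype B3GALT5-/- in the same medium. WT naive was unmodified H9 in 5iLAF medium, and KO naive was B3GALT5-/- H9 in 2iLAF medium. B3GALT5 encodes a galactosyltransferase of glycosphingolipid synthesis. Whether the knockout line was 1 clone is not given in the sources used here, and genotype and medium differed together between the naive libraries and cannot be told apart there. With 1 library per group, no difference below has a replicate check, and each test compares 2 libraries rather than 2 conditions. Values are given throughout with the primed libraries first, WT before KO, and then the naive libraries, WT before KO.

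POU5F1 (OCT4), NANOG, PRDM14 and SALL4 are DNA-binding proteins that hold embryonic stem cells in the undifferentiated state, and LIN28A and LIN28B are RNA-binding proteins that block maturation of the let-7 microRNAs. Primed human cells resemble the epiblast after implantation and naive cells the epiblast before it. DNA methylation is broadly lower in the naive state, and CpG-rich promoters of expressed genes are commonly free of it in both states. These genes are used as markers of pluripotency in both states.

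RefSeq promoter sequences were at hand for 2 of the 6 genes and are shown because they differ in CpG content, which sets how many sites a promoter offers to the assay. Each is the 250 bases before a transcript start (RefSeq, GRCh38.p14, plus strand, 5′ to 3′), with every CpG in capitals.
NANOG: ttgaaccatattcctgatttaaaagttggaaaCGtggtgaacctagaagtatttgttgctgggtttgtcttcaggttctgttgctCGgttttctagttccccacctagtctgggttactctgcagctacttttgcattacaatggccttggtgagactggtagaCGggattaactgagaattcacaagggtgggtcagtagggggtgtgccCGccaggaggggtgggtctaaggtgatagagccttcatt
LIN28B start 2: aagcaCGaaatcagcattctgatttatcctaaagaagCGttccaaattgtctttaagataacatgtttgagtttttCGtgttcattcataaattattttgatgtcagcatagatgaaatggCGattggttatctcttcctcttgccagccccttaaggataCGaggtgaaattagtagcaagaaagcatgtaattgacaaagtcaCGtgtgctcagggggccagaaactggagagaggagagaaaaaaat
The NANOG promoter held 4 CpGs and the second LIN28B promoter 6, against a median of 11 over 35116 RefSeq promoters of that length. The first LIN28B promoter held 33 CpGs. The NANOG promoter also held the octamer letters TTTGCAT, 120 bases before the start, followed after 1 base by the SOX-type core letters ACAATG. On either strand the motifs in this arrangement were found in 2 of the 35116 promoters (0.0057%), while TTTGCAT alone was in 3.94% and ACAATG alone in 9.29%. No listed cytosine could be tied to a CpG of the printed NANOG promoter. The NANOG start window, 7940000 to 7943000 on chromosome 12, held listed cytosines only up to 7941121. At the second LIN28B promoter the spacing of 3 listed cytosines matched CpGs at a single offset, which placed position 105404738 at base 6 of the printed sequence, 105404770 at base 38 and 105404894 at base 162. Each was listed in 1 naive library only, with 1 of 16, 1 of 18 and 2 of 9 reads methylated.

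The deposited tables list a cytosine only where at least 1 read was methylated. A cytosine missing from a library had either no read or no methylated read, and levels near 0 are raised by this selection. Over the 6 regions 404 cytosines were listed in at least 1 library and 129 in all 4, with 200, 237, 252 and 250 listed per library. The 100 cytosines had medians of 15, 15, 13 and 22 reads, and 97 of them lay on the minus strand. Summed reads per library ran from 23916547 in WT naive to 40697882 in KO naive. The 8 cytosines whose lowest coverage was exactly 5 reads had mean levels of 82.7, 100, 64.6 and 78.4%, and the 5 just outside, at 4 reads, had 76.4, 84.6, 53.4 and 70.7%. By symbol, RefSeq holds 7 further copies of POU5F1, 11 of NANOG, 3 of LIN28A and 7 of SALL4, so some reads may match more than 1 place, and the sources used here do not say how such reads were handled.

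Pooled over the 6 genes, of which POU5F1 gave 47 of the 100 cytosines, levels were lower in the naive libraries of both genotypes to about the degree seen across the whole table. The genes differed: the mean difference ran from -29.1 points at LIN28A to -9.55 at SALL4 in WT, and from -37.4 at LIN28A to -6.92 at SALL4 in KO, and the primed means of NANOG and SALL4 were near or below 50%. The mean level over the 100 cytosines was 73.4% ± 29.4 in WT primed, 73.5% ± 30.3 in KO primed, 51.6% ± 27.6 in WT naive and 51.8% ± 27.6 in KO naive (SD over cytosines). The naive level differed from the primed level by -21.8 points in WT and -21.6 points in KO, against -22.5 and -22.3 points over all 907719 cytosines. As 2 pairs the difference was -21.7 ± 0.104 points (SD, n = 2 pairs), a number of pairs with which an exact permutation test cannot give a p below 0.5. In all, 69 of the 100 cytosines had a lower level in the naive library of both genotypes and 8 a higher one. These 2 counts were not made for the whole table. Taken singly, 79 of the 100 were lower in WT and 81 in KO, against 697140 and 762619 of all 907719. Most cytosines of the whole table thus moved the same way. The size of the difference varied with the set of cytosines: over the 9 with at least 20 reads it was -13.6 points in WT and -8.46 in KO. Those 9 include start window cytosines of NANOG, PRDM14 and SALL4. Over all 17 start window cytosines the difference was -1.41 points in WT and -4.95 in KO. Depth and position therefore cannot be told apart in the 9. At 80% methylation or above in both libraries of a state stood 47 cytosines in the primed and 9 in the naive state. Whole-table counts at this level were not made.

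For each cytosine a two-sided Fisher's exact test was run, adjusted over all 907719 cytosines by the Benjamini-Hochberg method, and called at an adjusted p under 0.05 with a difference of at least 25 points. In WT, 14 of the 100 cytosines fell from primed to naive, where 16.2% of the whole table did, and 2 rose, where 0.442% did. In KO, 17 fell, where 18.2% of the whole table did, and 0 rose, where 0.242% did. The counts of called falls are near the background of the whole table. At an unadjusted p under 0.05 both comparisons held 29 cytosines, and the whole-table share at that limit was not counted. Called in both genotypes were 6 cytosines: 2 at POU5F1, 2 at NANOG, 1 at PRDM14 and 1 at LIN28A. The share of the whole table called in both was not counted, so the 6 have no background. At SALL4 none of the 18 cytosines was called in either genotype. Reads in these libraries varied more between the strands of a CpG than independent reads would, by a variance ratio of 2.61 to 4.02. With read counts divided by that ratio, 0 calls were left in WT (5 at an unadjusted p under 0.05) and 2 in KO, both at NANOG. The scaling leaves few reads per cytosine, so most could hardly be called whatever their difference. Lost calls thus do not show equal levels. Of all cytosines, 0.132% in WT and 0.17% in KO were still called lower with this scaling.

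**Figure D1:**
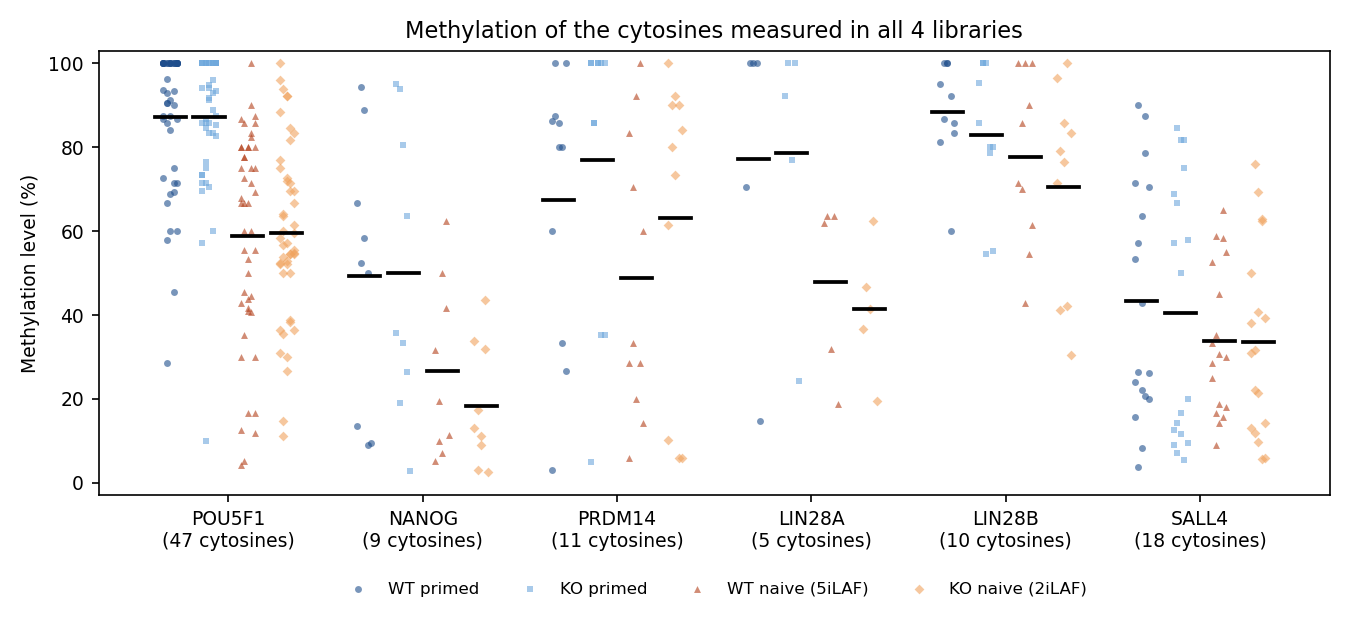
Methylation level (percent, vertical axis) of each of the 100 cytosines at the 6 genes, by library; each point is a cytosine and the bar is the mean. POU5F1 and LIN28A cytosines sit high in the primed libraries and lower in the naive ones, while the SALL4 cytosines form a high and a low band in the primed libraries that meet in the naive ones.

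POU5F1, the core transcription factor of the network, had mean levels of 87.3, 87.1, 58.7 and 59.7% over its 47 cytosines. Of these, 42 were lower in naive than in primed WT, and 42 in KO. Most of the whole table was also lower, 697140 of 907719 cytosines in WT and 762619 in KO. The cytosines fell into blocks, and 29 of them formed a single block of 1305 bp from 31129245 to 31130549, in the flank beyond the 3′ end of the gene, on the side of the neighbouring gene TCF19. Most POU5F1 values thus describe the flank and not the gene. Whether the block lies inside TCF19 could not be told, since that neighbour is known here by name only. That block had means of 88.1% ± 15.1, 88.3% ± 12.4, 58.7% ± 25.8 and 59.4% ± 18.9 (SD over cytosines).

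Within this block the steepest differences lay in a short run of neighbouring CpGs. At 31129653 the levels were 100, 84.6, 5.26 and 14.8% at 16, 13, 19 and 27 reads, and the cytosine fell in both genotypes (Fisher's exact test, adjusted p = 7.16e-07 in WT and 0.000828 in KO). Its neighbour at 31129647 had 93.8, 85.7, 4.35 and 31.03% and also fell in both (adjusted p = 1.47e-06 and 0.0105, Fisher's exact test). A few bases further on, 31129681 had 45.5, 83.3, 100 and 81.8%, a rise in WT (adjusted p = 0.0182, Fisher's exact test) at 11 and 15 reads. It stood apart from its near neighbours on both sides of the comparison, with a WT primed level below theirs and naive levels above theirs. Position 31129627 was at 100% in WT primed and 93.3% in KO primed, and at 12% in WT naive and 59.5% in KO naive. It was the 1 cytosine of the 100 called between the genotypes, higher in KO naive than in WT naive (adjusted p = 0.0384, Fisher's exact test). The call was lost with scaled reads, a setting that also lowers the power to call. Limits of 50 points or 20 reads leave it out by rule, since it differed by 47.5 points and had 15 reads in KO primed.

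As 1 kb tiles, the stretch beginning at 31129001 had means of 89.1, 87.3, 50.1 and 62.1% over 18 cytosines, and the one beginning at 31130001 had 86.3, 89.9, 72.8 and 55.03% over 11. A tile was counted as lower where at least 5 cytosines differed by at least 25 points on average and at least 80% of them moved that way. The first tile passed in both genotypes and the second in KO, out of 6 tiles of this size at the 6 genes. Of all tiles, 36.8% passed as lower in WT and 36.2% in KO, and 0.536% and 0.162% as higher. The genotypes thus ranked these tiles in opposite order, with the first the lower one in WT naive and the second the lower one in KO naive. This difference was not tested.

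Inside the gene, 7 cytosines from 31132932 to 31133043 had means of 95.4, 84.02, 71.8 and 78.9%. The 5 from 31134813 to 31135212 had 93.4, 90.4, 58.9 and 50.3%. The first set differed by -23.6 points between the states in WT and -5.09 in KO. In the second, all 5 cytosines had a lower level in the naive library of both genotypes. Upstream of the gene, 4 cytosines from 31143710 to 31143799 had 81.7, 96.3, 51.9 and 59.9%, and they come from 2 CpGs read on both strands. The strands of these CpGs differed by up to 46 points within a library.

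**Figure D2:**
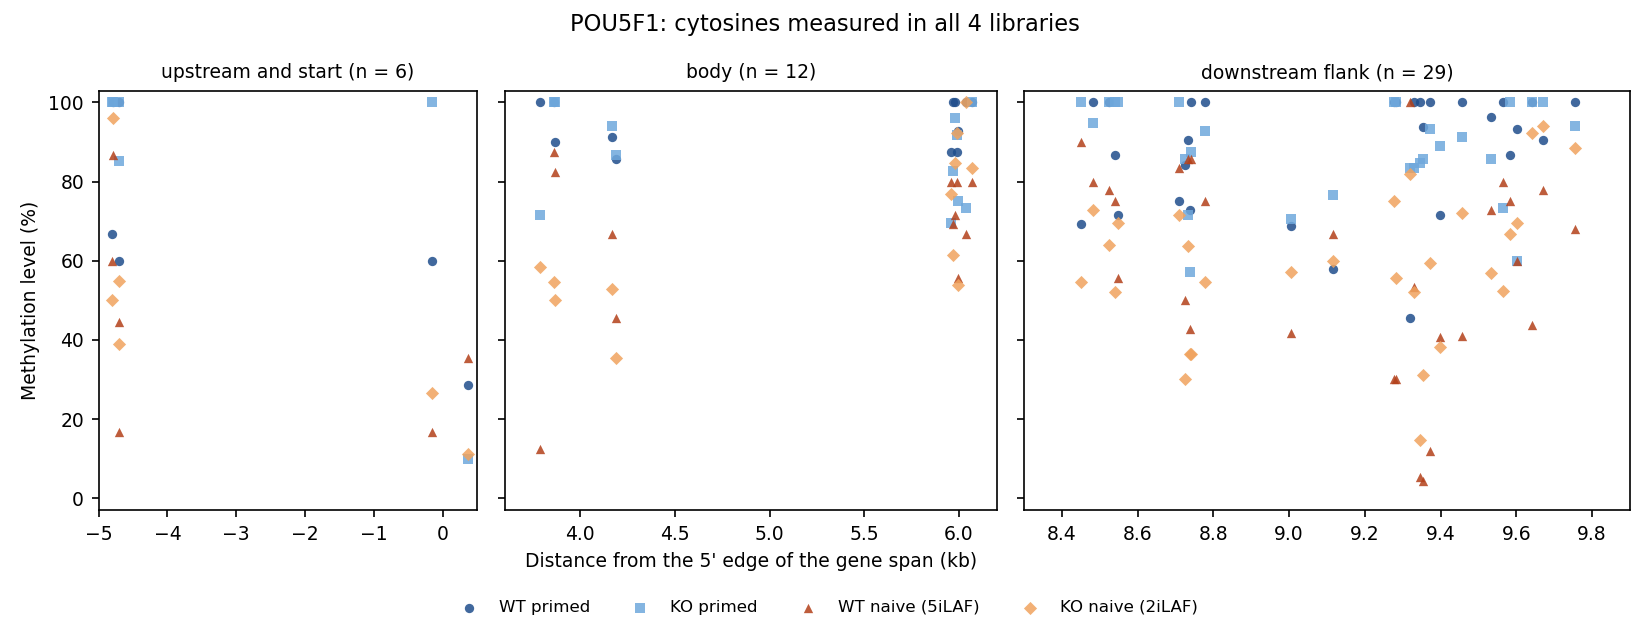
Methylation level (percent) of the POU5F1 cytosines against distance from the 5′ edge of the gene span (kb), in panels for the upstream and start region, the body and the downstream flank, with 1 symbol per library. In the downstream block the primed means are 88.1 and 88.3%, while the WT naive symbols spread from 4.35 to 100%.

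Near the POU5F1 start few cytosines could be followed. The start window was taken as 1 kb outside to 2 kb inside the 5′ edge of the span. It held 7 listed cytosines, and 2 of them were among the 100. Position 31139157 had 60, 100, 16.7 and 26.7% at 10, 9, 6 and 30 reads, and fell in KO (adjusted p = 0.00204, Fisher's exact test) but not in WT (adjusted p = 0.339). Position 31138628, inside the span, had 28.6, 10, 35.3 and 11.1%, from 2 of 7, 1 of 10, 6 of 17 and 1 of 9 reads. The first was lower in both naive libraries and the second differed little between the states. Its KO levels were below its WT levels, but each rests on 1 methylated read and neither difference was called.

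NANOG, a homeodomain factor of the same core circuit, held 3 steep differences in its upstream flank and a rise nearer the gene. Its upstream flank carried 3 cytosines with means of 83.3, 89.8, 19.4 and 20.9%, which gives -63.9 points for WT and -68.9 for KO. Position 7937291 had 94.4, 93.9, 19.5 and 17.4% at 18, 49, 41 and 69 reads (Fisher's exact test, adjusted p = 6.39e-06 in WT and 6.98e-15 in KO). Position 7937384 had 88.9, 80.4, 7.14 and 11.3% at 18, 46, 42 and 71 reads (adjusted p = 1.87e-07 and 1.11e-11, Fisher's exact test). These fell in both genotypes, and no primed level overlapped a naive one. They were also the 2 calls left in KO with scaled reads, at adjusted p = 0.0213 and 0.0315 (Fisher's exact test). The third cytosine, 7937237, had 66.7, 95, 31.6 and 33.9%, and its fall was called in KO (adjusted p = 5.77e-08, Fisher's exact test).

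At the edge of the NANOG span the pattern was mixed. Position 7940238, upstream of the edge, had 2 of 22 reads methylated in WT primed, 10 of 38 in KO primed, 35 of 56 in WT naive and 17 of 39 in KO naive. These are levels of 9.09, 26.3, 62.5 and 43.6%, with Wilson 95% intervals of 2.53 to 27.8% in WT primed and 49.4 to 73.99% in WT naive. The rise was called in WT (adjusted p = 0.000493, Fisher's exact test) and not in KO (adjusted p = 0.324). Both naive levels were above both primed levels. The neighbouring CpG at 7940255 was low in all 4 libraries, at 9.52, 2.94, 11.3 and 2.63%.

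The other listed cytosines near 7940238 did not share 1 pattern. At 7940297, 18 of 47 reads were methylated in WT naive, 1 of 31 in KO primed and 1 of 28 in KO naive, and the site was unlisted in WT primed. At 7940333 the counts were 16 of 38 in WT naive, 3 of 24 in KO primed and 2 of 22 in KO naive, again with none listed in WT primed. At both sites KO primed and KO naive were low and WT naive stood apart. On the other side of 7940238, at 7940138, the counts were 8 of 14 in KO primed, 9 of 19 in WT naive and 4 of 16 in KO naive. At 7940128 they were 7 of 9, 4 of 15 and 1 of 14 in the same libraries, so KO primed was highest there. Neither was listed in WT primed. Closer to the gene, 7941044 had 52.4, 19.05, 10 and 3.03%, a fall in WT (adjusted p = 0.0405, Fisher's exact test) from the highest of its 4 levels. Over the whole start window the methylated reads numbered 34, 51, 102 and 40, or 1.38, 1.79, 4.26 and 0.983 per 1000000 reads of the library. With a minimum of 20 reads, which leaves 3 cytosines of the start window and none of the flank, the mean NANOG difference turned to 4.28 points in WT and 0.316 in KO, from -22.7 and -31.6 over all 9. With unlisted cytosines filled in at 0 within 100 bp it was -9.98 in WT and -22.9 in KO over 14.

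**Figure D3:**
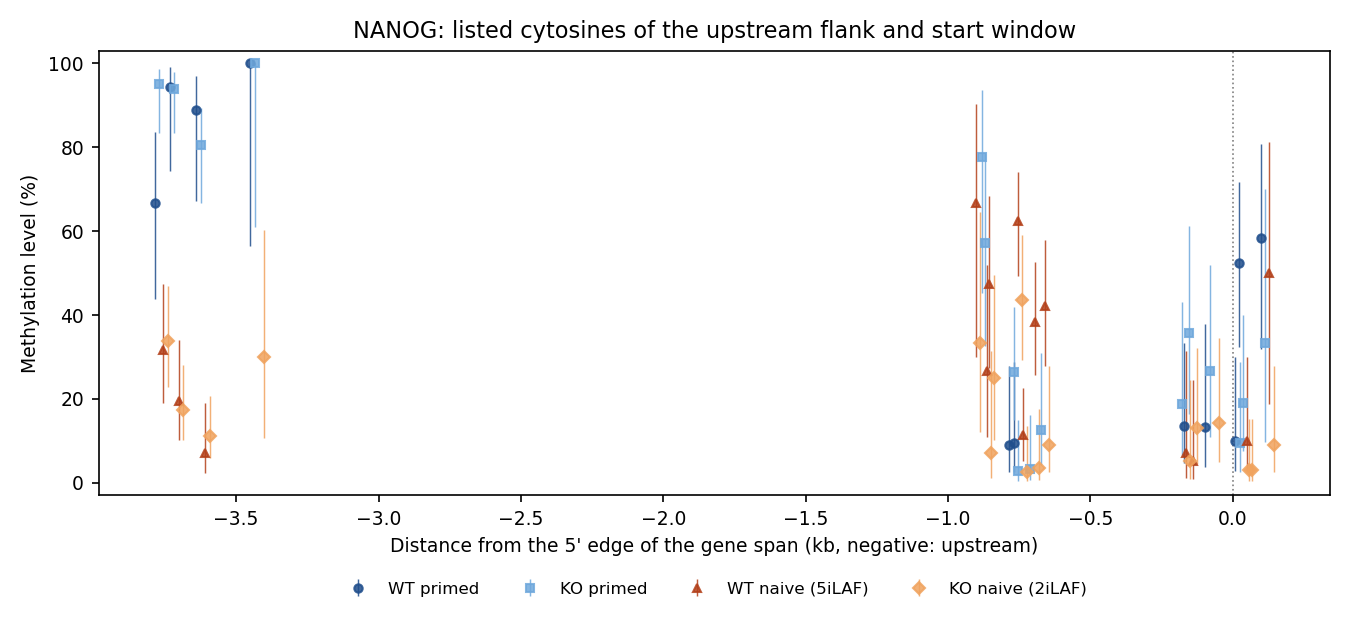
Methylation level (percent, with Wilson 95% intervals from read counts) of the NANOG cytosines against distance from the 5′ edge of the gene span (kb), with 1 symbol per library. In the group farthest upstream both primed libraries sit above both naive ones, and at 7940238 the order is turned, with WT naive highest at 62.5%.

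PRDM14, a PR-domain DNA-binding protein, had the widest gap between the naive libraries of the 6 genes, with KO naive 14.2 points above WT naive. Its 11 cytosines had means of 67.5, 77, 48.8 and 63.02%. In a block of 215 bp from 70978285 to 70978499, 4 cytosines had 91.6% ± 10.05, 96.4% ± 7.14, 35.5% ± 17.3 and 77.2% ± 12.5 (SD over cytosines). All 4 were lower in WT naive than in KO naive, at 5 to 14 reads in WT naive, and none was called between the genotypes. Position 70978352 fell in both, with 86.4, 100, 28.6 and 61.5% at 22, 31, 14 and 39 reads (Fisher's exact test, adjusted p = 0.0105 in WT and 0.00109 in KO). Towards the 3′ end, 4 cytosines from 70966086 to 70966268 stayed high in all libraries, at 78.3, 96.4, 86.6 and 90.6%. A low pair at 70981330 and 70981346 had 30, 35.3, 21.4 and 5.88%. With unlisted cytosines filled in at 0 from a neighbour within 100 bp, the PRDM14 difference shrank from -18.7 to -2.13 points in WT and from -13.98 to -6.86 in KO, over 39 cytosines, and KO minus WT naive from 14.2 to 0.211.

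The start of PRDM14 showed the widest difference in how many cytosines carried any methylated read. Its window listed 8 cytosines in WT primed, 9 in KO primed, 67 in WT naive and 38 in KO naive. Of the 89 listed in any library, 73 were listed in naive libraries only, and 18 of these in both. Summed over cytosines, the methylated reads were 10, 10, 170 and 67, or 0.407, 0.351, 7.11 and 1.65 per 1000000 reads. The exact Poisson 95% intervals were 0.195 to 0.748, 0.169 to 0.646, 6.08 to 8.26 and 1.28 to 2.09. They cover counting error only, and cytosines on 1 read are not independent. Listed cytosines there had median levels of 4.01, 5, 18.2 and 6.56% at medians of 25, 20, 14 and 30 reads. Most listed sites were low, but 18 of the 67 in WT naive were at 50% or above, at 3 to 7 reads each. In the primed libraries 1 of the 8 sites in WT and 0 of the 9 in KO reached 50%, and 0 of the 38 in KO naive. At sites unlisted in the primed libraries it is not known whether they had reads. In a window from 2 kb outside to 3 kb inside the edge, which takes in the low pair of the body, the values were 2.16, 2.6, 7.4 and 1.84. The naive library was then below the primed one in KO and still above it in WT. At the 1 cytosine listed in all 4, 70982083, the levels were 3.03, 5, 5.88 and 10.3%. It was also the 1 PRDM14 cytosine with 20 reads in every library, and over it alone the difference turned to 2.85 points in WT and 5.26 in KO.

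Counted in 1 kb tiles, the one beginning at 70982001 listed 5, 7, 47 and 27 cytosines, and the next 1, 1, 14 and 2. A tile was counted as differing where it had 4 times the listed cytosines or more, with at least 10 in the higher library. Both tiles passed in WT, where 5.62% of tiles did so in that direction and 3.05% in the other. The first did not pass in KO, where 4.51% and 1.04% of tiles did. The second tile also passed this 4-fold rule as lower in KO naive than in WT naive, where 0.619% of tiles did. Listing depends on depth, and KO naive had the most reads of the 4 libraries and WT naive the fewest. The part of depth in these counts was not tested.

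**Figure D4:**
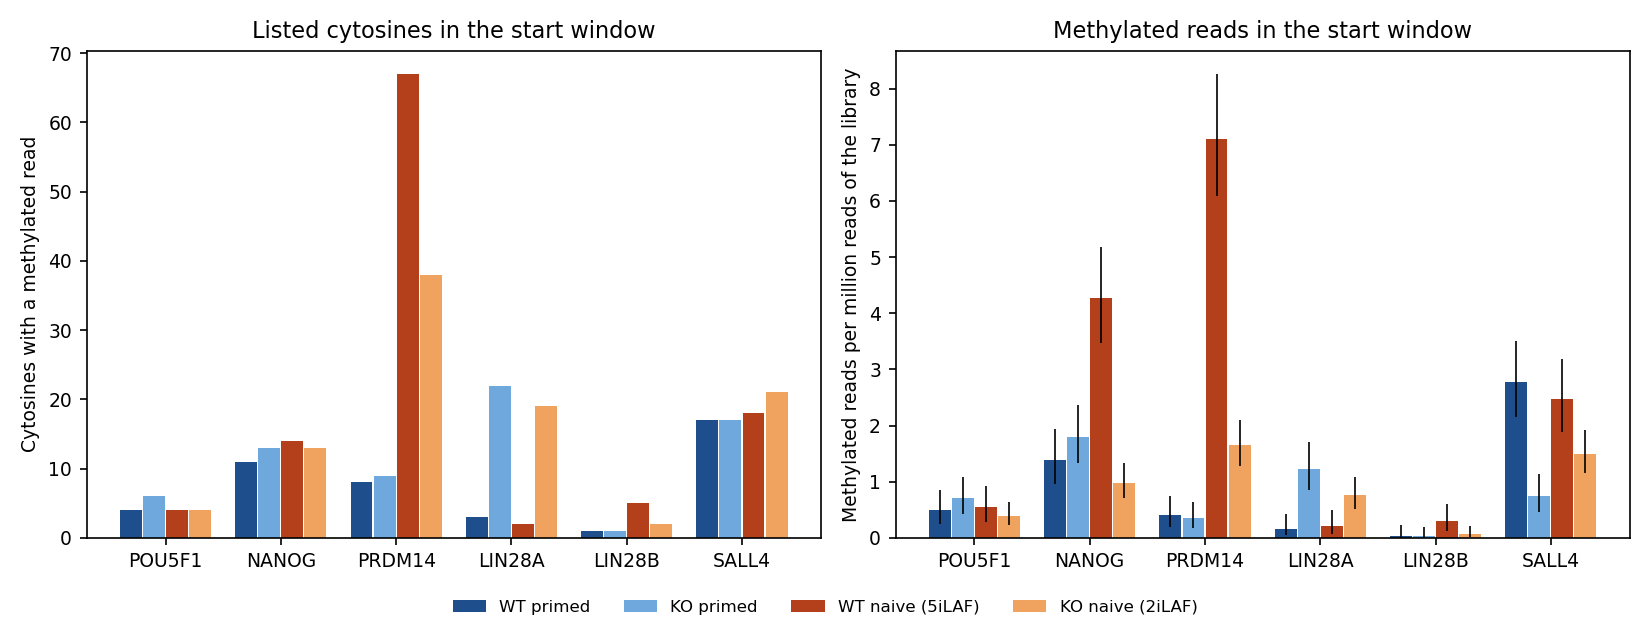
Bars give the number of listed cytosines (those with at least 1 methylated read) and methylated reads per 1000000 library reads in the 3 kb start window of each gene, by library, with exact Poisson 95% intervals on the latter. PRDM14 stands out with 67 listed cytosines in WT naive and 38 in KO naive against 8 and 9 in the primed libraries, and LIN28A with 22 and 19 in the KO libraries against 3 and 2 in WT.

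SALL4, a zinc finger protein that works with POU5F1 and NANOG, had the smallest difference between the states, with means of 43.5, 40.6, 33.9 and 33.6% over 18 cytosines. It split into equal sets. In the body, 9 cytosines from 50407086 to 50407305 had 68.3% ± 15.7, 69.3% ± 12.4, 47.7% ± 13.4 and 52.3% ± 15.8 (SD over cytosines), with 8 of 9 lower in WT naive and 9 of 9 in KO naive. None was called. In the start window the other 9 had means of 18.6, 11.8, 20.1 and 15.03%. Over 6 of these, from 50418880 to 50418953, the means were 19.5, 10.5, 20.7 and 10.1%. Here both KO libraries were below both WT libraries. The other 3, from 50419451 to 50419540, had 16.8, 14.5, 18.9 and 24.9%, with KO naive the highest. The 6 cytosines lie within 74 bp, where 1 read can cover several, and are not independent. Methylated reads in the SALL4 window were 2.77, 0.738, 2.47 and 1.499 per 1000000 reads.

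LIN28A had a block in its body where every cytosine had a lower level in the naive library of both genotypes. The 4 cytosines from 26746752 to 26746853 had means of 92.6% ± 14.7, 92.3% ± 10.9, 55.2% ± 15.6 and 46.8% ± 11.2 (SD over cytosines). Position 26746800 was at 100% in both primed libraries, at 63.6% in WT naive and at 46.7% in KO naive, and fell in both genotypes (Fisher's exact test, adjusted p = 0.033 in WT and 0.00686 in KO). Position 26746818 had 100, 76.9, 31.8 and 41.4%, and its fall was called in WT (adjusted p = 0.000654, Fisher's exact test). At 26746752, with 70.6, 92.3, 61.9 and 36.7%, the fall was called in KO (adjusted p = 0.00897, Fisher's exact test). The lone cytosine at 26755958, near the 3′ end, stayed low at 14.8, 24.4, 18.8 and 19.4%. Filling in unlisted cytosines at 0 within 25 bp, which adds 5, moved the LIN28A difference from -29.1 to -12.4 points in WT and from -37.4 to -19.6 in KO.

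The LIN28A start window had none of the 100 cytosines but listed more cytosines in the KO than in the WT libraries. It listed 3 cytosines in WT primed, 22 in KO primed, 2 in WT naive and 19 in KO naive. Of 30 listed in any library, 25 were listed in KO libraries only, 14 of them in both. Methylated reads were 4, 35, 5 and 31, or 0.163, 1.23, 0.209 and 0.762 per 1000000 reads. Both KO libraries were above both WT libraries in either measure. The tile beginning at 26737001 listed 3, 17, 2 and 14 cytosines and passed the 4-fold rule as higher in KO in the primed state, where 1.66% of tiles did and 0.695% were lower. It also passed in the naive state, where 2.9% did. No cytosine there had more than 4 methylated reads in any library, and in KO primed a run of 9 listed cytosines in a row carried 1 methylated read each. Listed cytosines carried by the same read are not independent. Each KO library also had more summed reads than the WT library of its state, 28450230 against 24570785 in primed and 40697882 against 23916547 in naive. The part of depth was not tested, and whether the sites unlisted in WT had reads is not known.

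LIN28B, the longer paralogue, had the highest naive levels of the 6 genes. Its 10 cytosines, all in the body, had means of 88.4, 82.9, 77.6 and 70.6%. The 6 from 105526483 to 105526691 had 90.99, 84.7, 83.8 and 76.4%, lower in WT naive at 3 and lower in KO naive at 3. Position 105526589 was the 1 cytosine called, with 86.7, 100, 70 and 41.2% and a fall in KO (adjusted p = 0.000487, Fisher's exact test). The 2 strands of the CpG at 105529718 had means of 71.7, 67.6, 58.04 and 36.3%. Its start window listed 1, 1, 5 and 2 cytosines with 1, 1, 7 and 3 methylated reads, too few to follow. LIN28B overlaps the antisense gene LIN28B-AS1, which is known here by name only. Whether any of these cytosines lies in the overlap could not be told.

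Cytosines with a low primed level differed little between the states on average, but single ones went both ways. The primed level was read from the primed library of the other genotype to keep the measures apart. Where that level was 80 to 100%, the naive minus primed difference was -27.7 points in WT over 60 cytosines and -24.4 points in KO over 58, against -24.8 and -23.6 points in the whole table. Where it was 40 to 80%, the differences were -24.9 points in WT over 21 cytosines and -28.5 in KO over 25, against -22.1 and -23.2 in the whole table. In the highest class NANOG differed by -63.9 points in WT over 3 cytosines and LIN28B by -3.85 points over 7. Where the primed level was 0 to 40%, the mean difference was 0.323 points in WT over 19 cytosines and -2.02 in KO over 17, against -5.51 and -10.8 points in the whole table. The start windows of the 6 genes held 17 of the 100 cytosines, at means of 23.6, 19.9, 22.2 and 14.98%, while the 46 in the bodies had 81.7, 81.06, 60.3 and 62.4%.

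Between the genotypes no shift of the mean was seen. KO minus WT was 0.0462 points in the primed state (SD over cytosines 17.0) and 0.194 points in the naive state (SD 22.05), against 0.973 and 1.14 points in the whole table. Near 0, its sign moved with the set of cytosines, to -9.39 and -4.23 points over the 9 with at least 20 reads. Those 9 differ from the 100 in position as well as depth. In the primed state 0 of the 100 cytosines were called by Fisher's exact test with adjustment, and 7 had an unadjusted p under 0.05, 3 lower and 4 higher in KO. Of all cytosines, 0.103% were called lower and 0.216% higher. In the naive state 0 were called lower and 1 higher, where 0.218% and 0.391% of the whole table were, and 9 had an unadjusted p under 0.05. With scaled reads 0 had one in either state. The whole-table share at an unadjusted p under 0.05 was not counted. Many true differences of 30 or 50 points would be missed. In simulated reads at these depths, 31.6% of 50-point falls and 7.6% of 30-point falls were called in the primed comparison. In the naive comparison the shares were 37.96% and 8.25%. The simulation drew independent reads and changed 100000 cytosines per size. In the real primed comparison only 932 cytosines were called lower and 1962 higher, which makes the adjustment stricter. These shares are therefore likely higher than those for the real reads. The 0 calls in the primed state therefore do not show equal levels. No tile of the 6 passed between the genotypes, where 0.8% of tiles passed as lower and 1.54% as higher in the primed state, and 2.21% and 3.33% in the naive state. By gene the naive difference ran from -8.13 points at NANOG to 14.2 points at PRDM14.

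**Figure D5:**
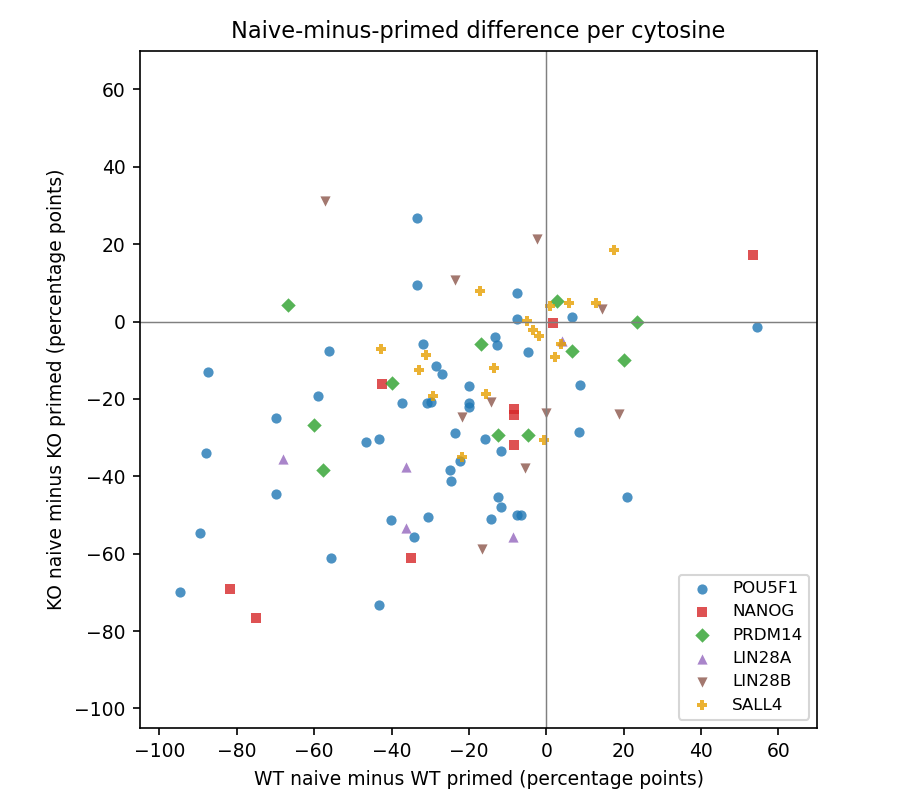
Naive minus primed difference of each of the 100 cytosines (percentage points) in WT on the horizontal axis and KO on the vertical axis, coloured by gene. Of the 100, 69 lie below 0 on both axes and 8 above 0 on both, and 7937291 and 7937384 of NANOG lie at the lower left beside 31129653 of POU5F1.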

How the data were processed

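Captured, bisulfite-treated DNA of 4 H9 libraries was sequenced, with a conversion of 99% per the labels' protocols. The submitters' processing notes name the build hg19 (GRCh37); aligner, caller and duplicate handling: not given in the sources used here. Each table deposited by the authors gives total, context and methylated coverage as read counts without normalization. The level deposited beside them is a fraction from 0 to 1, shown here as percent. Coverage here means context coverage, and chromosome Y was left out.

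From these counts, cytosines with at least 5 reads in all 4 libraries were compared by Fisher's exact tests. Median reads over the whole table were 13, 14, 13 and 21. The test was coded in Python 3.11.15 with numba 0.67.0, and a random set of its p-values was checked against SciPy 1.17.1. Wilson and Poisson intervals cover counting error only, and with 1 library per group p-values say nothing about replicates. The tests were tested on simulated data. Scaled reads were divided by the variance ratio between strands at levels of 20 to 80%. Neighbouring cytosines less than 300 bp apart formed a block.

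The 6 genes, lists and tests were chosen with earlier results of these data known. Single cytosines were named by rule: among those with at least 10 reads in every library, the 2 lowest and 2 highest differences between the states and the 1 largest between the genotypes per gene and state, and those of the start windows. Named after their values were seen were 7937237 and the first and last positions of the blocks. Also chosen after seeing the data were the blocks, the classes by primed level, and the counts of listed cytosines and methylated reads at the starts. Gene strands and neighbours come from RefSeq (GRCh38.p14) or textbooks, by name only. Alternatives were minimums of 10 and 20 reads, read-weighted levels, merged strands, spans without flanks, unlisted cytosines filled in at 0, a limit of 100 reads, 50 points, scaled reads and other tile sizes. Filling within 100 bp, start windows from 2 kb outside to 3 kb inside, and leaving out the POU5F1 downstream flank were added after seeing the data.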

Additional observations from a re-analysis of the deposited data

Results flagged for a closer look

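At the SALL4 start, the tile from 50418001 on chromosome 20 had opposite signs of the naive minus primed difference in the genotypes, 1.23 points in WT and -0.412 points in KO over 6 cytosines. The difference between the genotypes was not tested, and 3 of the 6 cytosines were lower and 3 higher in each.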

How the results depend on the processing

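Of the values that answer a comparison, 65 alternatives left the value within its margin and 27 moved it. For single genes and windows 207 stayed, 37 moved and 4 changed sign. Among the moves, filling in at 0 within 100 bp took the WT difference of PRDM14 from -18.7 to -2.13, of NANOG from -22.7 to -9.98 and of LIN28A from -29.1 to -11.8. The mean difference in WT, -21.8 points, became -13.6 with a minimum of 20 reads, -17.2 without flanks, -18.2 with unlisted cytosines filled in at 0 from a neighbour within 25 bp and -13.5 within 100 bp. In KO, -21.6 points became -8.46 with 20 reads, -26.4 with read-weighted levels, -14.6 without flanks and -15.7 with filling within 100 bp. KO minus WT became -9.39 (20 reads) and 3.51 (read-weighted) in the primed state and -4.23 (20 reads) in the naive state. With 20 reads, NANOG changed sign to 4.28 in WT and 0.316 in KO over 3 cytosines, and PRDM14 to 2.85 and 5.26 over 1. These minimums leave fewer cytosines, and the minimum of 20 reads also changes the mix of start windows, bodies and flanks. Calls lower in WT numbered 3 of 9 with 20 reads (32.7% of the whole table), 0 of 100 with scaled reads (0.132%) and 5 of 59 without flanks (16.2%), and calls higher 1 of 9 (1.2%), 0 and 0. Calls lower in KO numbered 1 of 9 (30.3%), 2 of 100 (0.17%) and 6 of 59 (18.2%). The call higher in KO naive was lost (0) with scaled reads. Settings of 20 reads, 50 points and no flanks also gave 0, but these leave that cytosine out by rule. With scaled reads, unadjusted p-values under 0.05 numbered 5 in WT and 4 in KO. Scaling leaves few reads per cytosine, so calls lost by it do not show equal levels. With at least 3 cytosines a tile, 6 of 14 were lower in WT (37.8% of all tiles), 6 in KO (38.7%), and 1 was higher in KO naive than in WT naive (4.77%). A minimum of 10 cytosines per tile left 2 tiles. No paired analysis was possible because the labels give no replicate numbers and 1 library a group leaves no block to fit; the mean over the 2 genotypes, which differ in naive medium, is a description. Depth limits single cytosines most: at 5 reads a level moves in steps of 20 points, and a cytosine without a methylated read is not seen.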

Other observations

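Upstream of LIN28B, between 105400879 and 105401646 on chromosome 6, 8 cytosines were listed in WT primed, 1 in KO primed, 0 in WT naive and 3 in KO naive. The highest count of methylated reads there was 6, at 105400885 (6 of 28 reads) and 105401046 (6 of 22 reads) of WT primed, and none of these cytosines was listed in more than 1 library. The window was chosen after its values were seen.

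The strands of the 3 CpGs measured on both gave a view of the precision. Plus minus minus strand was 40, 14.8, 27.8 and -15.9 points at 31143710, 33.3, 0, 26.7 and 46 points at 31143798, and -23.3, 24.8, -6.99 and 11.7 points at 105529718 (primed WT and KO, then naive WT and KO).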
